A study of Mus musculus with 10 samples.

Results

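The 9 genes described here are expressed mainly in microglia, the resident macrophages of the brain: Cx3cr1, P2ry12, Tmem119, Csf1r, C1qa, C1qb, C1qc, Aif1 and Trem2. They were taken by symbol from the platform annotation, as probe sets assigned to 1 of these symbols alone, with the brightest probe set standing for a gene. Each of the 9 genes had 1 such probe set, so 9 of the 19938 genes with a value and 9 of the 28944 probe sets tested are covered. Total RNA of the whole brain came from 5 Tg mice, which overexpressed Glo1 (glyoxalase 1) from a bacterial artificial chromosome, and from 5 WT littermates without it. Both genotypes were naive male adults with a C57Bl/6J strain background, and each mouse was measured on 1 Affymetrix array. The labels name neither the founder line nor the copy number of the transgene, and no cells were sorted, so each value is the level in RNA of the whole organ. The probe sets were 10597743 for Cx3cr1 on chromosome 9, 10498371 for P2ry12 on chromosome 3, 10532741 for Tmem119 on chromosome 5 and 10456071 for Csf1r on chromosome 18. For C1qa, C1qb and C1qc on chromosome 4 they were 10517517, 10517508 and 10517513, and on chromosome 17, which also carries Glo1, 10450484 for Aif1 and 10445781 for Trem2.

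Microglia enter the brain from the yolk sac and depend on the receptor Csf1r, with its ligands Il34 and Csf1, for their survival. In the healthy brain they carry a homeostatic set of surface proteins with which they sense neurons and nucleotides, and they make most of the C1q that starts the classical complement cascade, which tags synapses for removal. On activation they raise the actin-binding protein Aif1 (also called Iba1) and the lipid receptor Trem2. The members were therefore read as 4 homeostatic genes (Cx3cr1, P2ry12, Tmem119, Csf1r), 3 complement genes (C1qa, C1qb, C1qc) and 2 activation genes (Aif1, Trem2), although Aif1 and Trem2 are also expressed in resting microglia. A microglial gene can fall in bulk tissue because there are fewer cells or because each cell holds less of its RNA, and these cannot be told apart here.

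All values are log2 expression values as deposited, and differences are Tg minus WT on that scale. Glo1 was read by the brighter of its 2 probe sets. It was 2.85-fold higher in Tg brain (95% confidence interval 2.47 to 3.27, limma adjusted p = 3.50e-05), with 11.88 to 12.23 on the 5 Tg arrays against 10.27 to 10.75 on the 5 WT arrays. WT replicate 2 stood apart from the other arrays. Its mean over 10 cerebellar markers was 8.35, against 10.39 to 10.47 on the Tg arrays and 10.53 to 10.64 on the other WT arrays, and it was the lowest array for 9 of these 10 markers and for 14.7% of all probe sets. Its mean over 4 pituitary markers was 11.11, against 6.59 to 6.73 on the other WT arrays. Tg replicate 2 also stood apart in these pituitary markers, with a mean of 10.66, against 6.63 to 7.06 on the other Tg arrays. The WT replicate 2 mean over the 2 red blood cell markers measured was 8.99, against 7.66 to 7.82 on the Tg arrays and 7.73 to 7.92 on the other WT arrays. Values without WT replicate 2 are therefore given beside the results that this array moved.

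None of the 9 microglia genes passed the test between genotypes (limma, adjusted p above 0.99 for all 9), and none had an unadjusted p under 0.05. Over all probe sets 0.0345% passed, 0.00691% as higher and 0.0276% as lower in Tg, and 2.21% had an unadjusted p under 0.05. Of the 9 genes, 5 had a higher mean in Tg and 4 a lower one, with a median difference of 0.016 log2 units, beside -0.0031 over all probe sets, of which 47.8% had a higher mean in Tg. Leaving out WT replicate 2 gave 8 of the 9 with a higher mean in Tg, all but Aif1, and a median of 0.043. Over all probe sets 54.2% were then higher, with a median of 0.0083. Without Tg replicate 2 it was 6 of the 9, with a median of 0.017, and without Tg replicate 4 or WT replicate 4 it was 4 of the 9. With quantile normalization 7 of the 9 were higher in Tg, with a median of 0.033. With all 10 arrays the 95% intervals of the 9 fold changes all lay between 0.879 and 1.17, so no member's interval reached beyond these bounds. Tg and WT values overlapped for all 9 members, where 0.46% of all probe sets had groups that did not overlap.

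**Figure D1:**
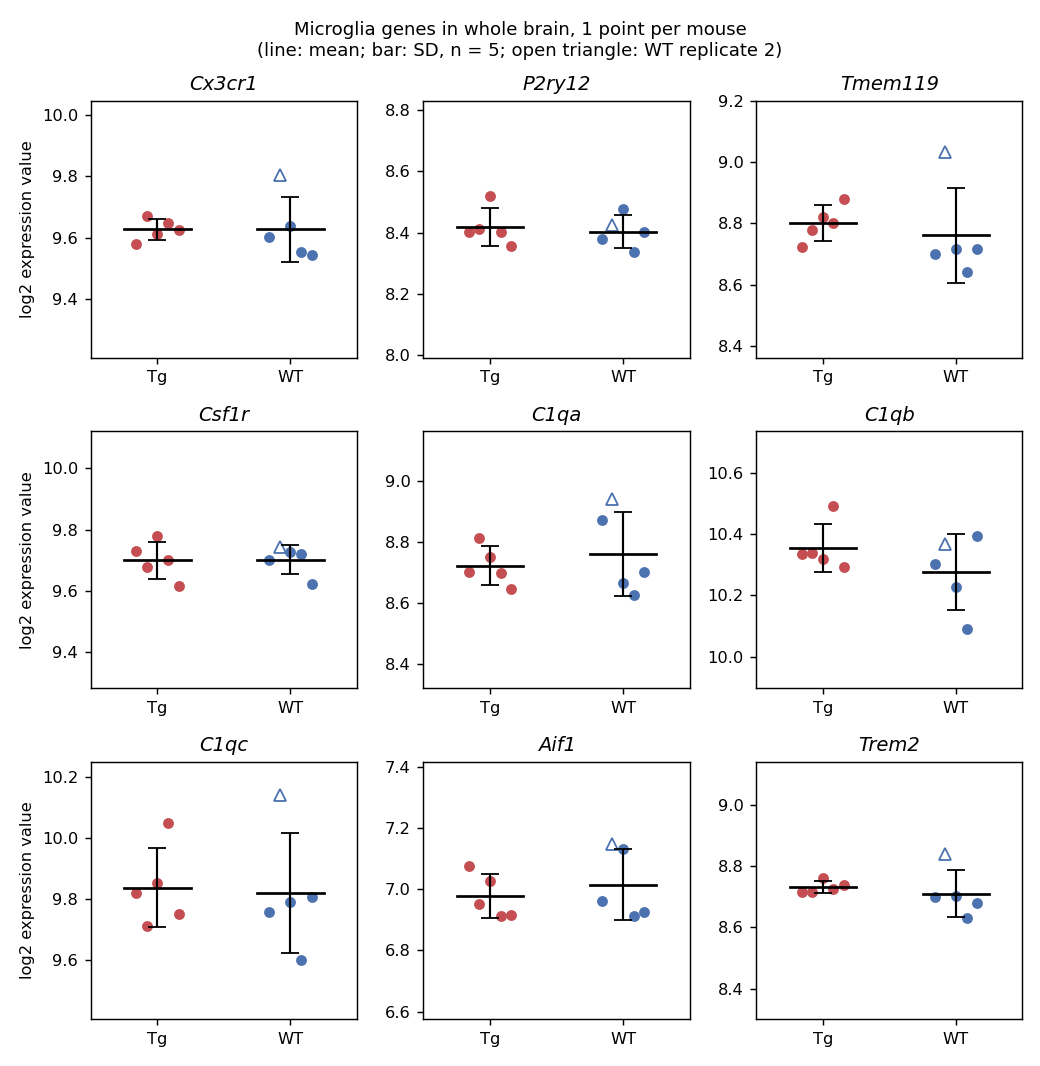
Log2 expression value of each of the 9 microglia genes in Tg (left) and WT (right) brain, 1 point per mouse, with the mean and SD of 5 arrays. Every panel spans the same number of log2 units. The groups overlap in all 9 panels, and WT replicate 2 (open triangle) is the highest array for 6 of the 9 genes.

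Tmem119, a membrane protein of unsettled function that separates microglia from other macrophages, read 8.72, 8.78, 8.82, 8.80 and 8.88 on Tg arrays 1 to 5, against 8.70, 9.03, 8.71, 8.64 and 8.72 on WT arrays 1 to 5. All 5 Tg values lay above 4 of the 5 WT values, and WT replicate 2 was the highest of all. The means were 8.80 ± 0.058 in Tg and 8.76 ± 0.16 in WT (SD, n = 5 each), a difference of 0.039 (95% interval -0.11 to 0.19; two-sided exact permutation p = 0.619). Without WT replicate 2 the WT mean was 8.69 ± 0.036 (SD, n = 4) and the difference 0.11 (0.016 to 0.20). It had an unadjusted p of 0.0250 and did not pass over all probe sets (limma adjusted p = 0.414). It was the only member difference with an unadjusted p under 0.05 in any of the 22 alternative settings. Without that array 3189 probe sets had an unadjusted p under 0.05, against 640 with it.

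Cx3cr1, the receptor for the neuronal chemokine Cx3cl1, read 9.58, 9.67, 9.61, 9.65 and 9.62 on the Tg arrays, against 9.60, 9.80, 9.64, 9.55 and 9.54 on the WT arrays. The Tg values fell inside the WT range, whose upper end was WT replicate 2. The means were 9.63 ± 0.034 in Tg and 9.63 ± 0.11 in WT (SD, n = 5 each), with a difference of -0.00046 (-0.12 to 0.11; exact permutation p = 1.0). Leaving out WT replicate 2 gave 0.043 (-0.040 to 0.13; limma adjusted p = 0.646).

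P2ry12, the purinergic receptor that steers microglial processes towards ADP, ranged from 8.36 to 8.52 on the Tg arrays and from 8.33 to 8.48 on the WT arrays. Csf1r, the receptor tyrosine kinase needed for microglial survival, ranged from 9.62 to 9.78 on the Tg arrays and from 9.62 to 9.74 on the WT arrays. WT replicate 2, at 8.42 for P2ry12 and 9.74 for Csf1r, was the highest array for neither gene. These were the steadiest members, spanning 0.19 and 0.16 log2 units over the 10 arrays. P2ry12 differed by 0.016 (-0.082 to 0.11; exact permutation p = 0.651) and Csf1r by -0.0022 (-0.097 to 0.093; exact permutation p = 0.968).

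C1q is built from 3 related chains, encoded by C1qa, C1qb and C1qc, which lie next to each other on chromosome 4 in the order C1qb, C1qc, C1qa of assembly GRCm38.p6. C1qb, the B chain, read 10.34, 10.34, 10.32, 10.49 and 10.29 on the Tg arrays, against 10.30, 10.37, 10.23, 10.09 and 10.40 on the WT arrays. Tg replicate 4 was the highest array and WT replicate 4 the lowest. C1qb had the largest difference of the 9 genes, 0.079 (-0.060 to 0.22; exact permutation p = 0.294), from means of 10.36 ± 0.079 in Tg and 10.28 ± 0.12 in WT (SD, n = 5 each). Leaving out WT replicate 4 gave the smallest difference of the 10 such fits, 0.032, and leaving out WT replicate 5 the largest, 0.11. It was 0.10 (-0.039 to 0.24; limma adjusted p = 0.549) without WT replicate 2.

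C1qc, the C chain, read 9.82, 9.71, 9.85, 10.05 and 9.75 on the Tg arrays, against 9.76, 10.14, 9.79, 9.60 and 9.81 on the WT arrays. It varied most of the 9 genes, with a span of 0.54 log2 units between WT replicate 2 and WT replicate 4. Its means were 9.84 ± 0.13 in Tg and 9.82 ± 0.20 in WT (SD, n = 5 each), and it differed by 0.019 (-0.19 to 0.22; exact permutation p = 0.857). Without WT replicate 2 the difference was 0.099 (-0.056 to 0.25; limma adjusted p = 0.582), and without WT replicate 4 it was -0.036.

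C1qa, the A chain, read 8.70, 8.81, 8.75, 8.70 and 8.65 on the Tg arrays, against 8.87, 8.94, 8.66, 8.63 and 8.70 on the WT arrays. WT replicates 1 and 2 were above all 5 Tg arrays, while the other 3 WT arrays lay within or below the Tg range. The means were 8.72 ± 0.062 in Tg and 8.76 ± 0.14 in WT (SD, n = 5 each), a difference of -0.038 (-0.18 to 0.10; exact permutation p = 0.587). Leaving out WT replicate 2 gave 0.0075 (-0.11 to 0.13).

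Aif1, the calcium-binding protein that stains microglia as Iba1, ranged from 6.91 to 7.08 on the Tg arrays and from 6.91 to 7.15 on the WT arrays. Its probe set was the 1 member below the upper 60% of probe sets by mean value. Aif1 differed by -0.039 (-0.17 to 0.093; exact permutation p = 0.524), and by -0.0055 (-0.13 to 0.12) without WT replicate 2. Trem2, the receptor for lipids and lipoproteins that signals through Tyrobp, read 8.72, 8.72, 8.76, 8.72 and 8.74 on the Tg arrays, against 8.70, 8.84, 8.70, 8.63 and 8.68 on the WT arrays. Its 5 Tg values spanned a narrow range that lay above 4 of the 5 WT values and below WT replicate 2. The means were 8.73 ± 0.019 in Tg and 8.71 ± 0.077 in WT (SD, n = 5 each), with a difference of 0.022 (-0.075 to 0.12; exact permutation p = 0.579). Leaving out WT replicate 2 gave 0.054 (-0.022 to 0.13; limma adjusted p = 0.552).

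**Figure D2:**
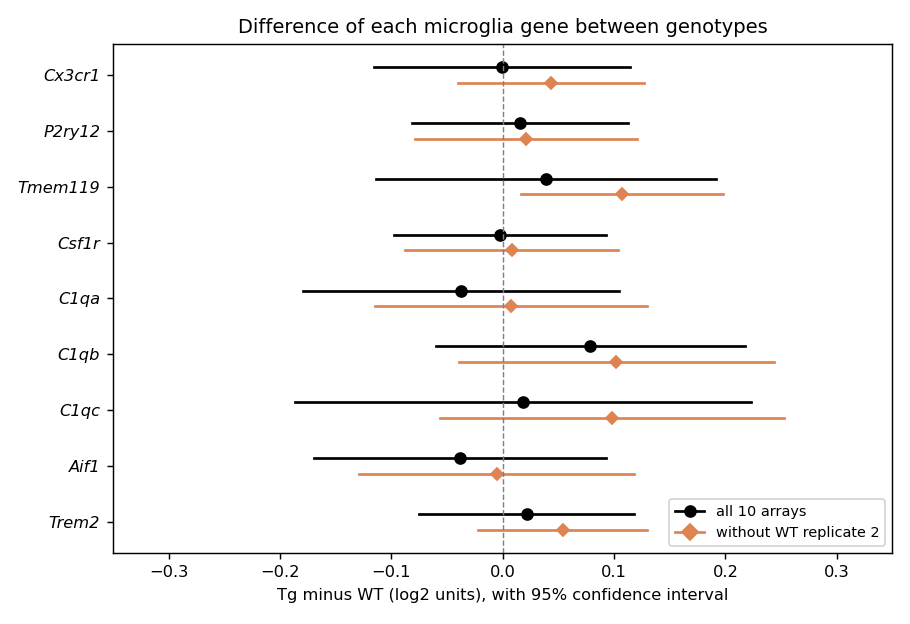
Difference Tg minus WT of each microglia gene in log2 units with its 95% confidence interval, over all 10 arrays (black circles) and without WT replicate 2 (orange diamonds). With all arrays every interval includes 0; without WT replicate 2 that of Tmem119 runs from 0.016 to 0.20 and the other 8 include 0.

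The spread between mice was smaller in Tg than in WT for 7 of the 9 members, as it was for 67.2% of all probe sets. Trem2 had an SD of 0.019 in Tg and of 0.077 in WT, and 0.033 in WT without replicate 2. Tmem119 had an SD of 0.058 in Tg and of 0.16 in WT, and 0.036 in WT without replicate 2. WT replicate 2 was the highest of the 10 arrays for 6 of the 9 members, namely Cx3cr1, Tmem119, C1qa, C1qc, Aif1 and Trem2. It was also the highest array for 36.5% of all probe sets. Its value exceeded the mean of the other 4 WT arrays by a median of 0.17 log2 units over the 9 members, and by 0.085 over all probe sets. WT replicate 4 was the lowest array for 7 of the 9 members, P2ry12, Tmem119, the 3 C1q chains, Aif1 and Trem2, and for 17.1% of all probe sets. The part of the missing cerebellar signal, the pituitary and blood markers and the array itself in the high microglial values of WT replicate 2 was not tested.

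Homeostatic, complement and activation members were next averaged per array. The homeostatic mean was 9.14 ± 0.029 in Tg and 9.12 ± 0.077 in WT (SD, n = 5 each), a difference of 0.013. The complement mean was 9.64 ± 0.067 in Tg and 9.62 ± 0.14 in WT, a difference of 0.020. The activation mean was 7.85 ± 0.038 in Tg and 7.86 ± 0.091 in WT, a difference of -0.0084. Each difference was smaller than the SD within either genotype. The 3 differences were 0.045, 0.069 and 0.024 without WT replicate 2, and -0.0024, -0.025 and -0.031 without WT replicate 4. Without WT replicate 2 the homeostatic mean of the other 4 WT arrays was 9.09 ± 0.035 (SD, n = 4). The Tg range of 9.11 to 9.18 still overlapped the range of these WT arrays, 9.06 to 9.14.

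The homeostatic mean minus the complement mean was then taken on each array. It averaged -0.50 ± 0.065 in Tg and -0.50 ± 0.089 in WT (SD, n = 5 each), with a Tg minus WT difference of -0.0069, smaller than either SD. The sign of this difference turned with single arrays left out, to 0.020 without Tg replicate 4, 0.011 without WT replicate 3 and 0.023 without WT replicate 4. It was -0.024 without WT replicate 2. Single mice departed from this balance. Tg replicate 4 had a mean of the complement members 0.12 log2 units above its 10-array mean, while that of the homeostatic members was 0.0088 above its own. On that array C1qb (10.49) and C1qc (10.05) lay above both of their genotype means. C1qa read 8.70 there, below its means of 8.72 in Tg and 8.76 in WT. In WT replicate 4 complement members were 0.19 below their mean and homeostatic members 0.068 below theirs. WT replicate 2 was high for all 3 classes, by 0.12 for homeostatic, 0.19 for complement and 0.13 for activation members.

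**Figure D3:**
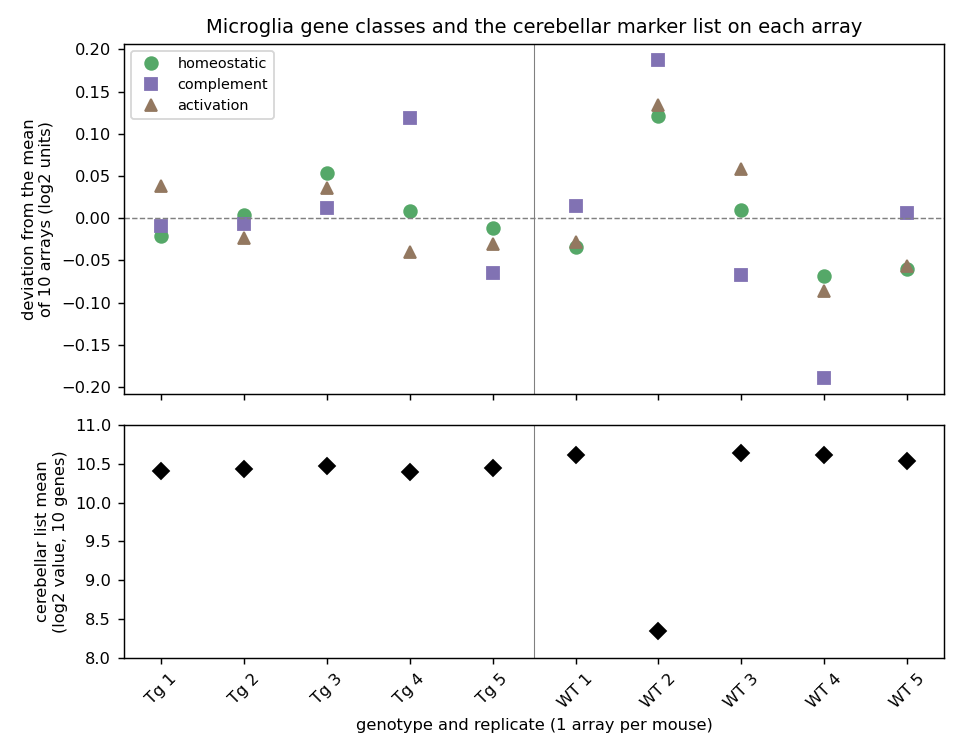
Upper panel: mean of the homeostatic (4 genes), complement (3) and activation (2) members on each array, as the deviation from the mean of 10 arrays in log2 units. Lower panel: mean log2 value of 10 cerebellar markers. WT replicate 2 has the highest value of all 3 microglial classes and the lowest cerebellar mean, 8.35; WT replicate 4 has the lowest value of all 3 classes with a cerebellar mean of 10.61.

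Covariation was measured for all 36 pairs of members over the 10 arrays. Pearson's r was positive for 34 of 36 pairs, with a median of 0.44 and a range from -0.17 (Csf1r with C1qb) to 0.94 (Tmem119 with Trem2). Arrays may share effects of labelling and normalization. Single members had a median r of -0.015 (P2ry12) to 0.30 (Cx3cr1 and Tmem119) with all probe sets. Without WT replicate 2 the median over the 36 pairs was 0.30, with 31 pairs positive. With each array centred on its median it was 0.27, with 27 positive.

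Tmem119 and Trem2 were the 1 pair of 36 that passed after Benjamini-Hochberg adjustment (r = 0.94, permutation p = 0.00015, adjusted p = 0.0054; Spearman's rho = 0.94, permutation p = 0.00019, adjusted p = 0.0068). Of all probe sets, 0.0656% had as high an r with Trem2 and 0.159% with Tmem119. Without the 2 arrays farthest from the Tmem119 median, Tg replicate 5 and WT replicate 2, r was 0.90 (exact permutation p = 0.00174, adjusted p = 0.0625). Without WT replicate 2 alone it was 0.86 (exact permutation p = 0.00344, adjusted p = 0.124). As deviations from the genotype means it was 0.94 (exact permutation p = 0.00792, adjusted p = 0.197). With each array centred on its median it was 0.81 (permutation p = 0.00476, adjusted p = 0.171). The pair thus kept an r of 0.81 or more in each of these settings, and its adjusted p missed the threshold in all 4.

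Cx3cr1 came next, with an r of 0.85 to Tmem119 and of 0.85 to Trem2 (permutation p = 0.00478 and 0.00467, adjusted p = 0.0574 for both; Spearman's rho 0.62 and 0.65, permutation p = 0.0613 and 0.0489, adjusted p = 0.270 for both). These values rested on WT replicate 2: without it r was 0.58 and 0.60, and without it and WT replicate 5 it was 0.59 and 0.56. The 5 other pairs with an r above 0.69 were C1qc with Trem2 at 0.79, Tmem119 with C1qc at 0.75, C1qb with C1qc at 0.72, Cx3cr1 with C1qc at 0.72 and Cx3cr1 with C1qa at 0.70. For Cx3cr1 with Tmem119 and with Trem2, 2.16% to 3.41% of all probe sets had as high an r with a gene of the pair. For the 5 other pairs this share ran from 3.21% (C1qc with Trem2, share for C1qc) to 14.3% (Cx3cr1 with C1qa, share for Cx3cr1). In C1qb with C1qc it was 4.87% for C1qb and 8.07% for C1qc. All these shares were larger than those of Tmem119 with Trem2. For C1qb with C1qc the r was higher without WT replicate 2, at 0.85 (exact permutation p = 0.0143, adjusted p = 0.258). Without Tg replicate 4 and WT replicate 4, the extremes of C1qb, it was 0.38 (exact permutation p = 0.317). The other 4 pairs were lower without WT replicate 2, at 0.57 for C1qc with Trem2, 0.45 for Tmem119 with C1qc, 0.35 for Cx3cr1 with C1qc and 0.32 for Cx3cr1 with C1qa.

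**Figure D4:**
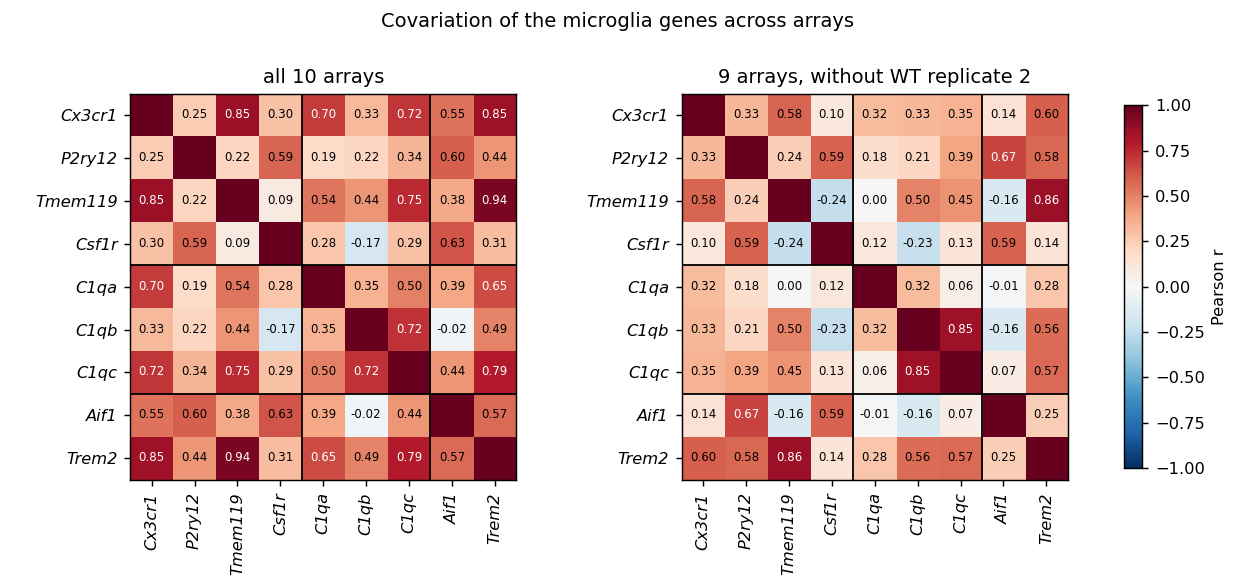
Pearson's r between the 9 microglia genes over all 10 arrays (left) and over the 9 arrays without WT replicate 2 (right); black lines separate homeostatic, complement and activation members. Most cells of the left panel are positive, and the cells of Tmem119 with Trem2 (0.94 and 0.86) and of C1qb with C1qc (0.72 and 0.85) stay high in both panels.

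Median correlations were also taken within and between the classes. The median r was 0.27 over the 6 homeostatic pairs, 0.50 over the 3 complement pairs and 0.57 for Aif1 with Trem2. Between classes it was 0.33 over the 12 homeostatic with complement pairs, 0.57 over the 8 homeostatic with activation pairs and 0.47 over the 6 complement with activation pairs. Without WT replicate 2 the homeostatic pairs had a median of 0.29, the complement pairs 0.32 and Aif1 with Trem2 an r of 0.25. The medians between classes were then 0.26 for homeostatic with complement, 0.58 for homeostatic with activation and 0.18 for complement with activation pairs. With quantile normalization the r of Aif1 with Trem2 was -0.17. These medians are descriptive, since the pairs share genes and arrays. C1qa, though encoded beside C1qb and C1qc, had an r of 0.35 with C1qb and of 0.50 with C1qc, and 0.32 and 0.055 without WT replicate 2. P2ry12 and Csf1r had an r of 0.60 and 0.63 with Aif1, of 0.59 with each other and of 0.22 and 0.089 with Tmem119, and none of these pairs passed. Without the 2 arrays farthest from the P2ry12 median, the r of P2ry12 with Csf1r was 0.23. With quantile normalization that of Csf1r with Aif1 was 0.36.

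**Figure D5:**
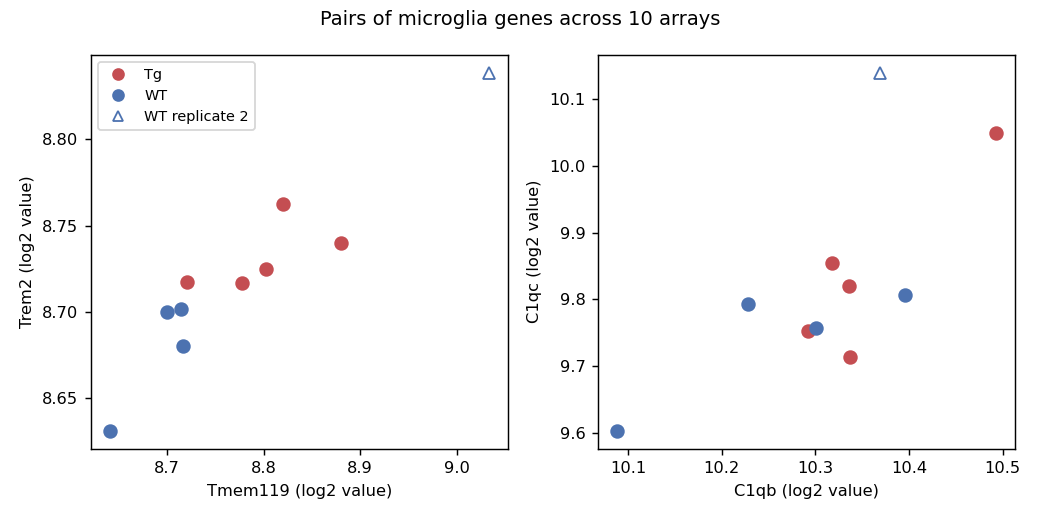
Log2 values of Trem2 against Tmem119 (left) and of C1qc against C1qb (right), 1 point per mouse, Tg in red and WT in blue. In the left panel the points rise together from WT replicate 4 to WT replicate 2 (open triangle); in the right panel Tg replicate 4 and WT replicate 2 lie at the top and WT replicate 4 at the bottom.

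Promoters are shown for the 2 complement genes that moved together most closely and for Trem2, of the pair with the highest r. Each is the 250 bases before the gene's start from RefSeq (build GRCm38.p6), written 5′ to 3′ on the gene's strand. They are chr4:136886201-136886450 on the minus strand for C1qb, chr4:136892915-136893164 on the minus strand for C1qc and chr17:48346151-48346400 on the plus strand for Trem2. Capitals mark GAGGAA on either strand (TTCCTC when read from the other one), the core letters that the myeloid factor PU.1, encoded by Spi1, is known to bind.
C1qb: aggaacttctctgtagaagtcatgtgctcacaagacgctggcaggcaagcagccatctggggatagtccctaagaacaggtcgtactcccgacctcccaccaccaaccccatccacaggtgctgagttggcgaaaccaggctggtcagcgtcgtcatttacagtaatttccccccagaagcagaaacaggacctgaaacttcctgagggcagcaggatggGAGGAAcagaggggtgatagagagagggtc
C1qc: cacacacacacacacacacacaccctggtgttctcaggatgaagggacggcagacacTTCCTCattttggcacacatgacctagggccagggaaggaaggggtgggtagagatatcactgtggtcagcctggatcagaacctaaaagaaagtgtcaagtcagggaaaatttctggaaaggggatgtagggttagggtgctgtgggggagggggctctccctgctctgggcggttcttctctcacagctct
Trem2: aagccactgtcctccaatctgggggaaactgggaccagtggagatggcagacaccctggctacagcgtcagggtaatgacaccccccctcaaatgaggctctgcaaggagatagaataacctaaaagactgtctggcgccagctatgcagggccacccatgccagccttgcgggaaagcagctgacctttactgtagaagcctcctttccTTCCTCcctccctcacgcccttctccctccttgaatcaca
The match begins 30 bases before the start in C1qb, 193 in C1qc and 40 in Trem2. The longer form GAGGAAGT is present in C1qc and was not found in the C1qb and Trem2 windows. Of the 6 members with a promoter sequence, 4 held GAGGAA on either strand, C1qb, C1qc, Trem2 and Aif1. The promoters of Cx3cr1 and P2ry12, not shown, did not hold it. Of 32851 mouse promoters of that length, 23.3% held GAGGAA and 2.44% held GAGGAAGT. Such a match describes letters only. Spi1 itself read 7.55 ± 0.11 in Tg and 7.58 ± 0.054 in WT (SD, n = 5 each), a difference of -0.028 (-0.15 to 0.093), and of -0.0087 without WT replicate 2.

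The genes whose pattern was most like each member were sought among 12901 brighter genes by Pearson's r over the 10 arrays. For Tmem119 they were Tnfaip8l1, Pou3f1 and Tmem127 (r = 0.97, 0.96 and 0.96), and for Trem2 they were Cartpt, Zfp618 and Pskh1 (0.98, 0.97 and 0.96). For Cx3cr1 they were Syngr1, Tmem161a and Ppic (0.98, 0.98 and 0.97). All 9 of these genes were highest in WT replicate 2, as the 3 members were and as 36.5% of all probe sets were. They were picked for a high r with members that peak there, so the shared peak is no separate result. Without WT replicate 2 the r of these genes with their member was 0.91 to 0.97. For C1qb the closest were Clu, Cdv3 and Tcn2 (0.97, 0.94 and 0.94), and for C1qc Chst11, Ndufa4l2 and Wdr4 (0.98, 0.96 and 0.96). For C1qa they were Padi2, Ndufa7 and 4930444G20Rik (0.93, 0.92 and 0.92). For Csf1r they were Dcx, Ano10 and Gfpt2 (0.94, 0.93 and 0.93), for P2ry12 Chmp7, Ninj1 and Thrsp (0.92, 0.89 and 0.88), and for Aif1 Kat2a, Lrrc36 and Adamtsl1 (0.91, 0.91 and 0.90). The genes named for C1qc and C1qa, and Kat2a and Lrrc36 for Aif1, were also highest in WT replicate 2. Without that array their r was 0.92 to 0.97 for C1qc, 0.84 to 0.87 for C1qa, and 0.87 and 0.86 for Aif1. All these genes were picked for their high r over 10 arrays that may share effects of labelling, so the values are descriptive.

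None of the ligands and partners of the members passed the test between genotypes. Il34, the neuronal ligand of Csf1r, differed by 0.0055 (-0.14 to 0.15), and Csf1, its other ligand, by -0.019 (-0.17 to 0.13). Cx3cl1, the neuronal ligand of Cx3cr1, differed by -0.0044 (-0.12 to 0.11), at 11.83 ± 0.029 in Tg and 11.83 ± 0.10 in WT (SD, n = 5 each). Tyrobp, the adaptor through which Trem2 signals, differed by 0.016 (-0.15 to 0.18), and in WT replicate 2 it was 0.32 above the mean of the other WT arrays. Of the 9 ligands and signalling partners measured, 5 had a higher and 4 a lower mean in Tg, and none passed (limma adjusted p above 0.99, the lowest unadjusted p 0.421 for Plcg2). Leaving out WT replicate 2 gave 7 with a higher and 2 with a lower mean in Tg. The differences were then 0.068 for Il34, -0.038 for Csf1, 0.039 for Cx3cl1, 0.080 for Tyrobp and -0.0052 for Plcg2.

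None of the further microglial, myeloid and complement genes passed over all probe sets either (limma adjusted p above 0.99). Of 18 other homeostatic genes measured, 8 had a higher and 10 a lower mean in Tg, with a median difference of -0.014. The count was 12 higher and 6 lower without WT replicate 2, with a median of 0.032. Fcrls, an Fc receptor-like protein of mouse microglia, had the lowest p of that list, at 8.81 ± 0.072 in Tg and 8.68 ± 0.10 in WT (SD, n = 5 each), a difference of 0.13 (0.0080 to 0.26; exact permutation p = 0.0317, limma adjusted p above 0.99). The difference in Fcrls was 0.14 without WT replicate 2. Of 19 further activation genes 11 had a higher and 8 a lower mean, with a median of 0.0020 and Ccl3, a chemokine, at 0.13 (-0.025 to 0.28). The count was the same without WT replicate 2, with a median of 0.040. Of 7 myeloid transcription factors 4 had a higher and 3 a lower mean, with Ikzf1 at 0.043 (-0.079 to 0.16), and the counts were the same without WT replicate 2.

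Of 14 further complement genes measured, 6 had a higher and 8 a lower mean in Tg, with a median of -0.00075. The count was 10 higher and 4 lower without WT replicate 2, with a median of 0.0062. C1ra and C1s1 encode the proteases that bind C1q, and they were the 2 members of that list with an unadjusted p under 0.05. C1ra differed by 0.22 (0.0070 to 0.44; exact permutation p = 0.0952) and C1s1 by 0.19 (0.022 to 0.35; exact permutation p = 0.0556), with limma adjusted p above 0.99 for both. Both were dim, at 6.33 ± 0.15 and 4.98 ± 0.15 in Tg and 6.10 ± 0.20 and 4.79 ± 0.11 in WT (SD, n = 5 each), and each has a near-identical copy in the mouse genome, so which copy was read is uncertain. Itgam and Itgb2, the chains of the complement receptor that microglia use on tagged synapses, differed by -0.067 (-0.19 to 0.060) and -0.0069 (-0.15 to 0.13), or by -0.075 and 0.0062 without WT replicate 2.

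Markers of other cells that share some of these genes were also compared. Border macrophage and blood myeloid markers (11 measured) had 6 higher and 5 lower means in Tg, and their mean was 6.25 to 6.32 on the Tg arrays, against 6.18 to 6.32 on the WT arrays other than replicate 2 and 6.47 on WT replicate 2. S100a9, a neutrophil protein, had the lowest p of that list, at -0.23 (-0.53 to 0.068), and -0.12 without WT replicate 2. Among other cell types, 0 of 8 neuronal, 6 astrocytic, 5 oligodendrocytic, 4 precursor and 6 endothelial markers passed. The lowest p among them belonged to Cldn5, a tight junction protein of brain endothelium, at 0.15 (0.039 to 0.27; exact permutation p = 0.0159, limma adjusted p above 0.99). In WT replicate 2 Cldn5 read 9.99, against 9.79 to 9.83 on the other WT arrays. Of the 6 endothelial markers 5 had a higher and 1 a lower mean in Tg, with or without that array. Over all probe sets 47.8% were higher with it and 54.2% without it. Of the lowest-p genes of the other lists, Gad1 of neurons differed by 0.064, Aqp4 of astrocytes by 0.052 (-0.0052 without WT replicate 2), Cnp of oligodendrocytes by -0.048, Olig2 of their precursors by 0.056 and Kcnj13 of the choroid plexus by 0.16 (0.083 without WT replicate 2). Slc4a1 of red blood cells differed by -0.21, Pomc of the pituitary by -0.12 and Calb2, the brightest cerebellar marker, by 0.14. Without WT replicate 2 these were -0.044, 0.13 and -0.014. Over the whole lists, 9 of the 10 cerebellar markers were then lower in Tg and 1 higher, with a median of -0.20. All 4 pituitary markers were then higher, with a median of 1.05. That comparison kept Tg replicate 2, whose pituitary mean was 10.66. The pituitary mean was 6.63 to 7.06 on the other Tg arrays and 6.59 to 6.73 on the remaining WT arrays. With all arrays 9 cerebellar markers were higher and 1 lower, and 2 pituitary markers were higher and 2 lower. The part of these tissues in the other differences without WT replicate 2 was not tested. The part of blood and vascular content in the microglial values was not tested.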

How the data were processed

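Log2 expression values were deposited as 1 table with a column per mouse. Per the submitters' processing notes the authors used Affymetrix Expression Console 1.1.2; its background correction, normalization and summarisation were not given in the sources used here. Control rows (6612) were left out, and 28944 probe sets were tested. Symbols came from the platform annotation, updated through Entrez identifiers. Some marker genes of the lists are not analysed here.

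Tg and WT were compared over all probe sets with limma 3.58.1 (R 4.3.3, no covariates) and Benjamini-Hochberg adjustment at 0.05. Single genes were also given two-sided exact permutation tests over arrays, whose smallest p with 5 against 5 is 0.00794. Correlations used 100000 permutations with 10 arrays, and exact enumeration with fewer. Class means were not tested. The fit was tested on simulated data first.

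Members and lists were chosen with earlier results of these data known. Named were all members, the ligands, adaptor, transcription factor and receptor chains given, the gene of lowest p of each list, C1ra after its value was seen, and the 3 genes most like each member. Depth in reads does not apply; the number of arrays limits precision. Alternatives covered normalization, dim probe sets, the variance model, array weights, the replicate number, the serial number in the labels, the cerebellar mean as a covariate (chosen after seeing the data), and leaving out each array.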

Additional observations from a re-analysis of the deposited data

Results flagged for a closer look

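In several genes and list means 1 of the 5 arrays of a genotype lay far from the other 4, by Dixon's 95% criterion, which chance meets in about 1 in 20 groups. The number of groups screened is not given here. Tmem119 read 9.03 in WT replicate 2, against 8.64 to 8.72 in the other WT mice. C1qb read 10.49 in Tg replicate 4, against 10.29 to 10.34 in the other Tg mice. Cx3cl1, the ligand of Cx3cr1, read 12.005 in WT replicate 2, against 11.76 to 11.82. Cldn5 read 9.99 in WT replicate 2, against 9.79 to 9.83 in the other WT mice. S100a9 read 6.54 in Tg replicate 5, against 6.71 to 6.75 in the other Tg mice.

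The same array stood apart for markers of tissue outside the microglia. The cerebellar list mean was 8.35 in WT replicate 2, against 10.53 to 10.64 in the other WT mice, and Calb2, its brightest member, read 10.59, against 11.30 to 11.42. Pomc, a pituitary hormone precursor, read 8.40 in WT replicate 2, against 7.12 to 7.20. The pituitary list mean was 11.11 in WT replicate 2, against 6.59 to 6.73 in the other WT mice. In Tg replicate 2 the pituitary list mean was 10.66, against 6.63 to 7.06 in the other Tg mice.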

How the results depend on the processing

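In all 22 alternatives 0 of the members present passed (limma), and the lowest adjusted p was 0.414, for Tmem119 without WT replicate 2. The means of the homeostatic, complement and activation members, and homeostatic minus complement, moved by less than the SD between mice pooled over both genotypes. The homeostatic difference, 0.013, was 0.045 without WT replicate 2, a move larger than the Tg SD of 0.029. With single arrays left out the homeostatic difference ranged from -0.0024 to 0.045, the complement one from -0.025 to 0.069, the activation one from -0.031 to 0.024 and their homeostatic minus complement balance from -0.024 to 0.023, so all 4 changed sign. The activation difference was also above 0 with array weights (0.019) and with the cerebellar mean as a covariate (0.011). Csf1r and Cx3cr1, whose differences were closest to 0, changed sign with quantile normalization (0.019 and 0.020), cyclic loess (0.019 and 0.021), array weights (0.012 and 0.027) and the cerebellar mean as a covariate (0.0036 and 0.027). With single arrays left out, signs changed for C1qa (-0.071 to 0.0075), C1qc (-0.036 to 0.099), Csf1r (-0.022 to 0.019), Cx3cr1 (-0.022 to 0.043) and P2ry12 (-0.0099 to 0.034). Tmem119, C1qb, Aif1 and Trem2 kept their sign in every alternative run on them. Only Cx3cr1, Csf1r, C1qb and C1qc were present in the upper 30% of probe sets, and Aif1 was absent from the upper 60%, so class means with missing members were not computed.

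The number of member pairs past the threshold was 1 with all arrays. It was 0 without the 2 arrays farthest from the median, 0 for deviations from the genotype mean, 0 with median centring and 5 with quantile normalization. With single arrays left out it ranged from 0 (without WT replicate 2) to 5 (without Tg replicate 5), and those 5 pairs joined Tmem119, Trem2, Cx3cr1 and C1qc. The number of the 28944 probe sets with an unadjusted p under 0.05 was 640 with all arrays. In fits over the same probe sets it was lowest, at 391, without WT replicate 4 and highest, at 3189, without WT replicate 2. It was 110 of the 8683 in the upper 30%.

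Same-numbered Tg and WT arrays deviated together with r from -0.47 to 0.45, so the numbers were not taken as pairs, although the serial numbers of same-numbered mice in the labels lie close together. With the replicate number as a block 0 members passed and 11 probe sets did, against 10 without it. The number of arrays and, for Aif1, dim signal limit what can be seen. The cause of these changes was not tested.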
